A study of Mus musculus with 6 samples.

Results

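The genes described here encode the 3 TGF-beta ligands (Tgfb1, Tgfb2, Tgfb3), their signalling receptors and co-receptor (Tgfbr1, Tgfbr2, Tgfbr3), 3 latent TGF-beta binding proteins (Ltbp1, Ltbp2, Ltbp3) and the matrix protein Tgfbi. All probe sets whose platform gene symbol was one of these 10 were taken, which gave 27 of the 45037 probe sets of the array, control probe sets aside. The rule uses names and no measured value, although earlier results of these data were known when the genes were chosen. Of the 27 probe sets, 26 passed the filter on dim signal, which removed the lower 40% of probe sets by mean over all arrays, and every gene kept at least 1.

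The samples were total RNA of whole aorta from C57BL/6J apoE-/- mice (3 arrays) and C57BL/6J wild type mice (3 arrays), all 32 weeks old. Mice without apolipoprotein E, a carrier of plasma lipoproteins, develop high cholesterol and atherosclerotic plaques. The question was how gene expression in the aorta differs between the genotypes. Whether an array held RNA of 1 animal or of several is not stated. The p-values below therefore reflect variation among these samples alone, part or all of which may be technical.

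TGF-beta is secreted in a latent form, bound to its own propeptide and, through that, to a latent TGF-beta binding protein that anchors the complex in the matrix. Once released, the ligand binds the type II receptor, which phosphorylates the type I receptor, which in turn phosphorylates Smad proteins that enter the nucleus. In the artery wall the pathway is known for its part in smooth muscle differentiation, matrix synthesis and restraint of inflammation.

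The arrays were alike in depth, with median intensities of 178 to 195.5 units and correlations of r = 0.966 to 0.972 within a genotype and r = 0.950 to 0.968 between genotypes. The targeted gene matched the labels: Apoe read 239.5, 56.3 and 462.1 units in apoE-/- aorta, against 5686, 5625 and 4309 units in wild type aorta. Along the first principal component, which held 45.5% of the variance, apoE-/- replicate 2 lay nearer to the wild type arrays than the other apoE-/- arrays did. The ratio of 3′ to 5′ probe signal, a sign of RNA quality, was 1.151 to 1.155 in apoE-/- and 1.164 to 1.209 in wild type aorta for beta-actin, without overlap, and overlapped for Gapdh. Its part in the results was not tested. The smooth muscle marker Myh11 was bright on every array, at 10116 to 12891 units in apoE-/- and 11535 to 13643 units in wild type aorta. Such markers differed in brightness, and Des read 596 to 837 units in apoE-/- and 616 to 847 units in wild type aorta. Of 27022 probe sets tested, 678 were higher and 76 lower in apoE-/- aorta, so 2.79% were called at an adjusted p under 0.05. Leaving out 1 array gave 292, 1091 or 345 calls when the array was replicate 1, 2 or 3 of apoE-/-, and 421, 510 or 382 calls when it was replicate 1, 2 or 3 of wild type.

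Within the family, 1 ligand and 1 binding protein were higher in apoE-/- aorta, and no member was called lower. Tgfb1 and Ltbp2 each stood at more than 2 times the wild type level. Of the 26 tested probe sets, 2 were called higher, where 2.51% of all probe sets tested were called in that direction and 0.281% were called lower. The other 24 probe sets, which cover the other 8 genes and a further probe set of Tgfb1, did not pass the test. In 5 of the 26 probe sets all apoE-/- arrays lay above all wild type arrays, and in 3 they lay below, where 10.6% and 12.2% of all probe sets tested did so. The median log2 change over the 26 probe sets was 0.05, and that of all probe sets tested -0.04.

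**Figure D1:**
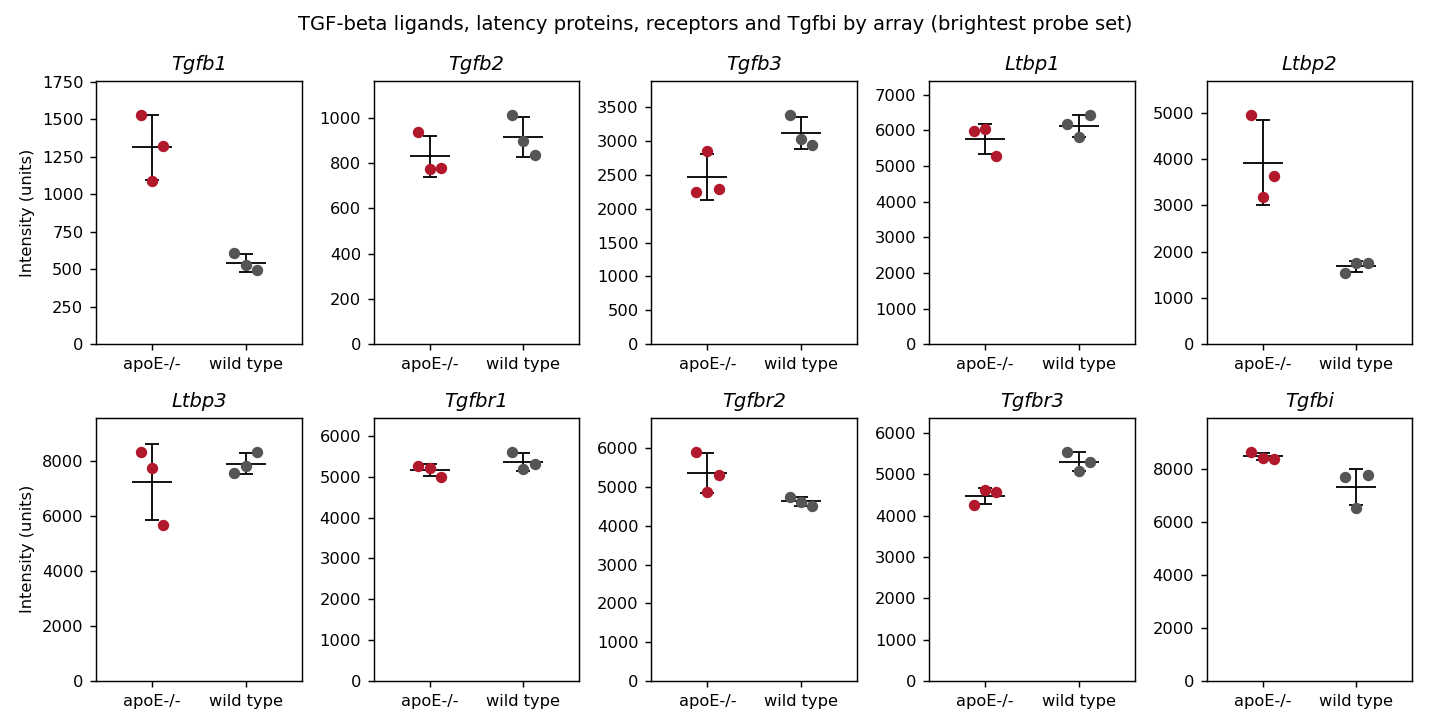
Intensity in units (y axis, from 0) of the brightest tested probe set of each of the 10 genes on each array, with apoE-/- left of wild type. Points are arrays, the bar is the mean and the whisker the SD (n = 3 each). Tgfb1 and Ltbp2 separate the genotypes widely, with apoE-/- means of 1313 and 3922 units against 545 and 1685 units in wild type, and the other 8 genes differ little or overlap.

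Among the ligands, Tgfb1 is the one most made by leukocytes and platelets and is the best known in vascular disease. Its main probe set read 1528, 1090 and 1322 units in apoE-/- aorta, against 612, 527 and 495 units in wild type aorta. All 3 apoE-/- arrays were above every wild type array, with apoE-/- replicate 2 the lowest of its group. The means were 1313 ± 219 units in apoE-/- and 545 ± 60.4 units in wild type aorta (SD, n = 3 each), a ratio of 2.41. The log2 change was 1.24 ± 0.15 (SE, limma adjusted p = 0.00335), with a 95% confidence interval of 0.90 to 1.57. As throughout, log2 changes are on the log2(intensity + 16) scale, which understates changes of dim probe sets.

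A further Tgfb1 probe set, designed on an expressed sequence tag, ran the other way. It read 198.9, 199.4 and 206 units in apoE-/- aorta, against 244.7, 211.3 and 271.8 units in wild type aorta. The genotypes did not overlap, with apoE-/- lower, but the difference was small against the spread (log2 change -0.24 ± 0.16, SE, limma adjusted p = 0.495). The call on Tgfb1 therefore rests on 1 probe set, the brighter of the pair. In either direction, 22.8% of all probe sets tested had genotypes that did not overlap.

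Tgfb1 lies on chromosome 7, within 10 Mb of the targeted Apoe gene in the RefSeq gene table. Of 193 other genes tested in that window, 3 were higher and 6 lower in apoE-/- aorta (4.66%, against 3.46% of all 13052 genes tested, each gene represented by its brightest probe set). In that window 46 genes had an unadjusted p under 0.05 in limma, against 2391 of all 13052, and the log2 changes had a median of -0.10, where that of all genes was -0.05. Of the 26 other genes tested within 1 Mb of Tgfb1, limma called none, and 2 had an unadjusted p under 0.05. Their median log2 change was -0.02.

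Tgfb2, a ligand prominent in vascular development that needs the co-receptor Tgfbr3 for efficient binding, showed no call on any of 4 probe sets. Its brightest probe set read 936, 776 and 780 units in apoE-/- aorta, against 1011, 898 and 835 units in wild type aorta, and the groups overlapped. The log2 change was -0.14 ± 0.12 (SE), with a 95% confidence interval of -0.42 to 0.14. The other 3 probe sets changed by 0.16, 0.04 and -0.16, so the probe sets differed in sign, and their adjusted p-values in limma lay between 0.582 and 0.902.

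Tgfb3 has a single probe set, which read 2250, 2854 and 2287 units in apoE-/- aorta, against 3380, 3034 and 2941 units in wild type aorta. All apoE-/- arrays were below every wild type array, but the highest apoE-/- array came close to the lowest wild type array. The log2 change was -0.34 ± 0.12 (SE), and the difference did not pass the test (limma adjusted p = 0.191, unadjusted p = 0.0167). Among the alternatives tried, its adjusted p ranged from 0.0616 to 0.458.

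The ligands were also compared with each other within arrays, as a description. The exact permutation test used cannot give a p under 0.1 here, so it could not call any pair. The log2 difference between Tgfb1 and Tgfb2 on the same array was 1.38 larger in apoE-/- than in wild type aorta, and that between Tgfb1 and Tgfb3 was 1.58 larger. In each case the genotypes did not overlap, and the exact permutation test, two-sided, gave p = 0.1, the smallest that 3 arrays against 3 allow. After Benjamini-Hochberg adjustment over the 9 within-role pairs of ligands, receptors and binding proteins that were compared, the exact permutation p was 0.129. Pairs within a role share genes and are not independent, and Tgfb1 and Ltbp2 were each called on their own. How often pairs of other genes do not overlap was not tested. Between Tgfb2 and Tgfb3 the difference was 0.21 larger in apoE-/- aorta, with overlap (exact permutation p = 0.4, adjusted p = 0.45).

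The binding proteins hold the latent ligand in the matrix, except that Ltbp2 does not bind it and is known as a component of microfibrils and elastic fibres. Among these binding proteins, Ltbp2 was the one that rose. It read 4944, 3178 and 3643 units in apoE-/- aorta, against 1547, 1749 and 1759 units in wild type aorta. The lowest apoE-/- array was far above the highest wild type array, and the apoE-/- arrays were more spread. The means were 3922 ± 915 units in apoE-/- and 1685 ± 119 units in wild type aorta (SD, n = 3 each), a ratio of 2.33. The log2 change was 1.19 ± 0.16 (SE, limma adjusted p = 0.00521), with a 95% confidence interval of 0.84 to 1.54. This is the only Ltbp2 probe set on the array.

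The binding proteins that do carry latent TGF-beta were not called. Ltbp1 read 5989, 6025 and 5278 units in apoE-/- aorta, against 6161, 5807 and 6417 units in wild type aorta. The groups overlapped, with a log2 change of -0.09 ± 0.09 (SE, 95% confidence interval -0.30 to 0.12). Its other 2 probe sets changed by -0.23 and -0.20. Ltbp3 read 8334, 7746 and 5691 units in apoE-/- aorta, against 7581, 7812 and 8332 units in wild type aorta, and only apoE-/- replicate 3 stood clearly below the rest. That probe set changed by -0.14 ± 0.14 (SE), and by 0.024 without apoE-/- replicate 3. The other 3 Ltbp3 probe sets changed by 0.09, 0.06 and 0.32, none of them called (limma adjusted p = 0.655 to 0.927). On the same array, the log2 difference between Ltbp2 and Ltbp1 was 1.28 larger in apoE-/- than in wild type aorta, and that between Ltbp2 and Ltbp3 1.33 larger. Each had an exact permutation p of 0.1, the smallest possible here, and an adjusted p of 0.129.

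The stretches just upstream of the start sites are shown for the 2 genes that rose and for Tgfb2, a ligand that was not called, to let their promoters be set side by side. Each is the 250 bases before the RefSeq start site, 5′ to 3′ on the gene's strand, in build GRCm38.p6, with GC boxes (GGGCGG, either strand) and TATA boxes (TATAAA, either strand) in capitals. AP-1 motifs (TGANTCA) were also searched, had no match in these 3 windows and would have been capitalised.
Tgfb1, chr7:25686752-25687001, plus strand: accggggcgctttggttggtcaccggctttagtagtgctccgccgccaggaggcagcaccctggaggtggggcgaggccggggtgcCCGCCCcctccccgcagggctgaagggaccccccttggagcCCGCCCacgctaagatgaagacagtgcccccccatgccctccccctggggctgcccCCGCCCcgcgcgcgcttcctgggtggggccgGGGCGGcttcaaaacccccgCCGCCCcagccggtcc
Ltbp2, chr12:84876492-84876741, minus strand: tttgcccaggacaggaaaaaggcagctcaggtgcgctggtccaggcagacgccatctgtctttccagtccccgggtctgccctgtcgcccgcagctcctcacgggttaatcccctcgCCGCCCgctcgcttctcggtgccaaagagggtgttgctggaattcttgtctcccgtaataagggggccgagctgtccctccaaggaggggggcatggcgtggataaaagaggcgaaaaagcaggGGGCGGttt
Tgfb2, chr1:186705990-186706239, minus strand: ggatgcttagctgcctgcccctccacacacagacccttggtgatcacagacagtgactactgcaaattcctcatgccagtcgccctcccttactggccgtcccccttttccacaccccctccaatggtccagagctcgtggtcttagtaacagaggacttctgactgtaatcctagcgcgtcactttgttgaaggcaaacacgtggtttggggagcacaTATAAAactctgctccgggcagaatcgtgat

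The Tgfb1 window held 5 GC boxes and no TATA box, with 75.2% G and C, at or above 96.4% of all windows. The Ltbp2 window held 2 GC boxes and no TATA box (61.6% G and C), and the Tgfb2 window held no GC box and 1 TATA box that began 31 bases before the start site (53.6% G and C). Among 32536 windows of the same length in the RefSeq table, 33.0% held a GC box, 12.3% a TATA box and 6.73% an AP-1 motif, and the median G and C share was 52.4%. The short Smad box CAGAC, either strand and not capitalised, had no match in the Tgfb1 window and 2 matches each in the Ltbp2 and Tgfb2 windows, and was present in 42.2% of all windows. Uncalled members also had GC boxes, 2 in a Tgfbr1 window and 1 in the Tgfbi window. Among the 8 members with a window, none held an AP-1 motif and only Tgfb2 a TATA box. A match is a run of letters and not a measured binding site. Windows were matched for 8 of the 10 genes, all but Tgfb3 and Tgfbr3.

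**Figure D2:**
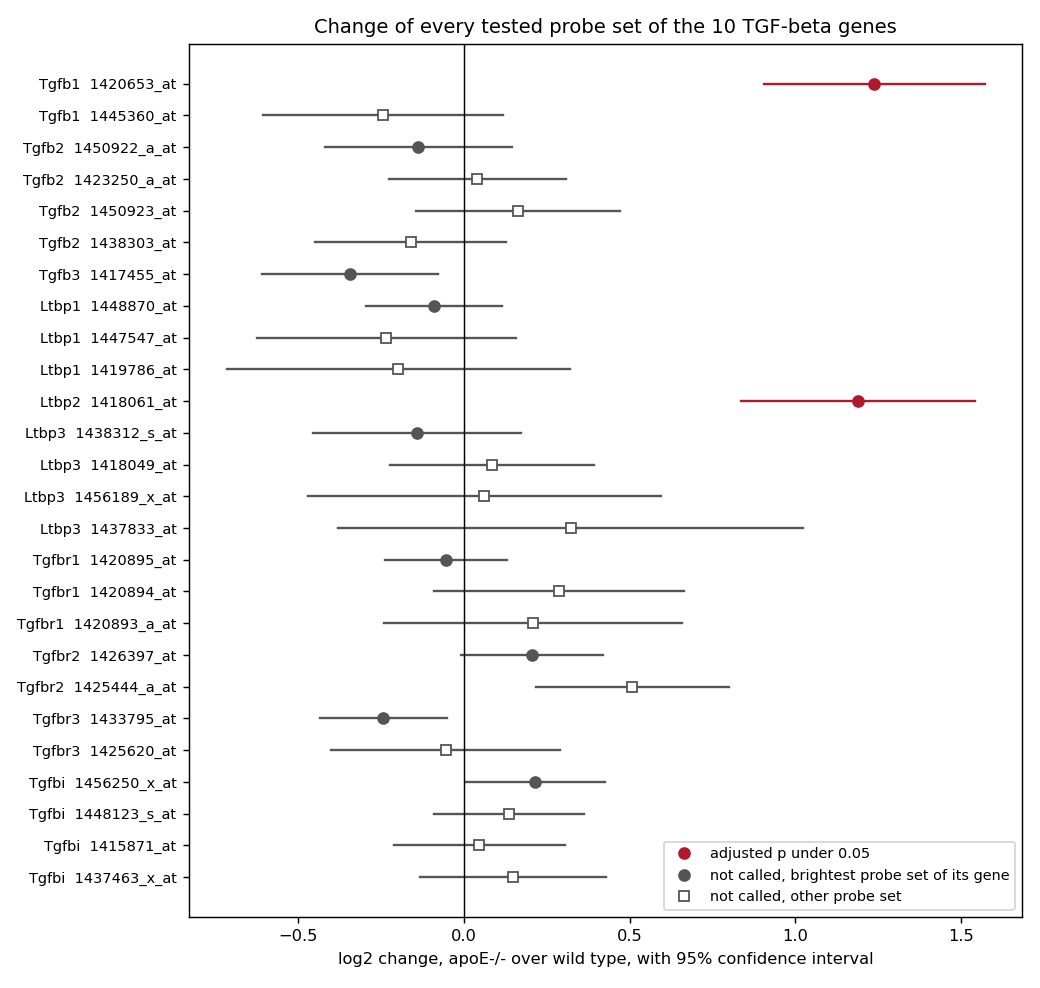
The log2 change of apoE-/- over wild type (x axis) for each of the 26 tested probe sets (y axis, by gene), with its 95% confidence interval. Filled circles are the brightest probe set of a gene, open squares its other probe sets, and red marks an adjusted p under 0.05. Only the brightest probe set of Tgfb1, at 1.24, and the probe set of Ltbp2, at 1.19, are red, and the largest change among the others is 0.51, for the dimmer tested probe set of Tgfbr2.

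None of the receptors was called. Tgfbr2, the type II receptor that binds the ligand first, read 5908, 4882 and 5307 units in apoE-/- aorta, against 4760, 4626 and 4521 units in wild type aorta. The apoE-/- arrays were all above the wild type arrays, by a small margin (log2 change 0.21 ± 0.09, SE, limma adjusted p = 0.327). A dimmer Tgfbr2 probe set read 361.5, 369.6 and 394.3 units in apoE-/- aorta, against 266.4, 262.7 and 247.6 units in wild type aorta. Its arrays were tightly grouped and did not overlap, and its log2 change of 0.51 ± 0.13 (SE) was the largest among the uncalled probe sets (limma adjusted p = 0.0857, unadjusted p = 0.0034). It was not called under any of the alternatives tried, where its adjusted p ranged from 0.072 to 0.282.

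The remaining Tgfbr2 probe set was the only one of the 27 under the filter. It read 38.3, 58.8 and 48.1 units in apoE-/- aorta, against 67.7, 110.7 and 82.4 units in wild type aorta, in the lower 26.2% of all probe sets by mean signal. Its direction was opposite to that of the other Tgfbr2 probe sets. In a fit with no filter its log2 change was -0.67 ± 0.27 (SE, limma adjusted p = 0.361).

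Tgfbr1, the type I receptor kinase also called ALK5, read 5270, 5216 and 5004 units in apoE-/- aorta, against 5603, 5180 and 5305 units in wild type aorta. The groups overlapped and the estimate was narrow, with a log2 change of -0.05 ± 0.08 (SE) and a 95% confidence interval of -0.24 to 0.13. Its dimmer probe sets changed by 0.29 and 0.21, with adjusted p-values in limma of 0.435 and 0.652. Tgfbr3, the co-receptor betaglycan, read 4250, 4611 and 4574 units in apoE-/- aorta, against 5536, 5075 and 5300 units in wild type aorta. All apoE-/- arrays were below the wild type arrays, and the estimate was -0.24 ± 0.08 in log2 (SE, limma adjusted p = 0.201, unadjusted p = 0.0184). A dimmer Tgfbr3 probe set changed by -0.05 ± 0.15 (SE) with overlap. On the same array the log2 difference between Tgfbr2 and Tgfbr3 was 0.45 larger in apoE-/- aorta (exact permutation p = 0.1, the smallest possible here, adjusted p = 0.129).

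Tgfbi, a secreted adhesion protein first found as a transcript induced by TGF-beta, was bright on every array and was not called. Its brightest probe set read 8639, 8433 and 8359 units in apoE-/- aorta, against 7683, 6525 and 7757 units in wild type aorta. The apoE-/- arrays were all above the wild type arrays, by 0.22 ± 0.09 in log2 (SE, limma adjusted p = 0.295), and this probe set has a name ending in x_at, which marks probes that may also match other transcripts. The other 3 probe sets overlapped between genotypes and changed by 0.14, 0.05 and 0.15. The widest 95% confidence interval of the 4 reached 0.43 in log2, below the changes of Tgfb1 and Ltbp2.

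The 8 genes with several tested probe sets can be read for their internal match. In 4 of them (Ltbp1, Tgfbi, Tgfbr2 and Tgfbr3) all tested probe sets changed in 1 direction, and in Tgfb1, Tgfb2, Tgfbr1 and Ltbp3 they did not. Variation between arrays of a genotype was ordinary for this series. The median coefficient of variation over the 26 probe sets was 12.4% in apoE-/- and 9.04% in wild type aorta, against 12.3% and 11.9% over all probe sets tested.

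Genes that store or release latent TGF-beta included 3 that rose. Of 20 tested, 3 were higher and none was lower, where 3.09% of all genes tested were called higher and 0.368% lower. Their log2 changes had a median of 0.01, and those of all genes tested -0.05. Thbs1, thrombospondin 1, which can activate latent TGF-beta by contact, read 2755, 3067 and 3826 units in apoE-/- aorta, against 1082, 831 and 801 units in wild type aorta (log2 change 1.81 ± 0.16, SE, limma adjusted p = 9.27e-04). Mmp14, a membrane-bound metalloproteinase that can free the latent complex, rose by 1.35 ± 0.16 (SE, limma adjusted p = 0.00383). Nrros, which anchors latent TGF-beta on the surface of macrophages and microglia, rose by 1.14 ± 0.20 (SE, limma adjusted p = 0.0221). The call on Nrros was lost without apoE-/- replicate 1, apoE-/- replicate 3, wild type replicate 1 or wild type replicate 3, where its adjusted p lay between 0.0604 and 0.0941. The count in the list was 5 without apoE-/- replicate 2.

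Activating integrins were not called. Itgb8, the beta chain of an integrin that activates latent TGF-beta, averaged 1125 ± 216 units in apoE-/- and 721 ± 112 units in wild type aorta (SD, n = 3 each, limma adjusted p = 0.103), and was named after its value was seen, as were the next genes. Its partner Itgav changed by -0.04, and Ltbp4, the binding protein specific to TGF-beta 1, by -0.08. Mmp2 averaged 4834 ± 1036 units in apoE-/- and 3148 ± 239 units in wild type aorta (SD, n = 3 each, limma adjusted p = 0.083). A dimmer Mmp2 probe set changed by 0.29 ± 0.17 (SE, limma adjusted p = 0.438).

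Of 16 extracellular inhibitors and co-receptors tested, 1 was higher and none was lower, where 3.09% and 0.368% of all genes tested were. Lrg1, a secreted glycoprotein that modifies TGF-beta signalling in endothelium, read 1184, 651 and 1049 units in apoE-/- aorta, against 481, 454 and 302 units in wild type aorta (log2 change 1.17 ± 0.24, SE, limma adjusted p = 0.0402). Its arrays did not overlap, but it passed the test only narrowly and was not called without apoE-/- replicate 1, apoE-/- replicate 3 or any single wild type array, with adjusted p-values of 0.0716 to 0.171. The matrix proteoglycans that bind TGF-beta, Dcn and Bgn, changed by 0.09 and 0.00, and the co-receptor Eng by -0.24, none of them called. A dimmer Eng probe set changed by 0.06 ± 0.11 (SE). The neuropilins Nrp1 and Nrp2, membrane co-receptors, were not called on their brightest probe sets (0.30 and 0.52, limma adjusted p = 0.128 and 0.267), but dimmer probe sets rose. A pair of Nrp1 probe sets rose by 0.58 and 0.52 (limma adjusted p = 0.0255 and 0.0339), and a Nrp2 probe set by 1.43 ± 0.22 (SE, limma adjusted p = 0.0113).

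Smads and their regulators, which carry the signal inside the cell, held no called gene. Limma called 0 of 24, and 2 had an unadjusted p under 0.05, against 2391 of all 13052 genes. The smallest p belonged to Dab2, an endocytic adaptor that binds Smads, which averaged 3544 ± 390 units in apoE-/- and 2609 ± 197 units in wild type aorta (SD, n = 3 each, limma adjusted p = 0.0873). Without apoE-/- replicate 2 Dab2 was called (adjusted p = 0.0357). Smad2 and Smad3, the Smads phosphorylated by the TGF-beta receptor, changed by 0.01 and 0.09. Smad7, the inhibitory Smad induced by the pathway, changed by -0.50 ± 0.21 (SE, limma adjusted p = 0.284) on its brightest probe set and by -0.05 on a further one. The name of the brightest ends in x_at, which marks probes that may also match other transcripts. The array reads RNA, so the phosphorylation of Smads is not seen here.

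Of 35 genes known as transcriptional targets, 2 were higher (5.71%) and none was lower, where 3.09% of all genes tested were higher and 0.368% lower. The list's log2 changes had a median of 0.07. In limma 8 of the 35 had an unadjusted p under 0.05 with a higher value and 2 with a lower one, against 2391 of all 13052 genes in either direction. Timp1, an inhibitor of metalloproteinases, read 6426, 3070 and 4532 units in apoE-/- aorta, against 733, 1005 and 796 units in wild type aorta (log2 change 2.39 ± 0.24, SE, limma adjusted p = 0.00162). Snai2, a transcriptional repressor of mesenchymal cells, rose by 0.98 ± 0.18 (SE, limma adjusted p = 0.0245) on a probe set whose name ends in x_at. Such probes may also match other transcripts. Another Snai2 probe set overlapped and changed by 0.27 ± 0.37 (SE, limma adjusted p = 0.770). The call on Snai2 was lost without apoE-/- replicate 1, apoE-/- replicate 3, wild type replicate 1 or wild type replicate 3. With apoE-/- replicate 1, wild type replicate 1 or wild type replicate 3 left out, the list held 1 called gene, and with apoE-/- replicate 2 left out it held 4.

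Other targets, read on their brightest probe sets, were not called. Ccn2, the connective tissue growth factor, changed by -0.01, Col1a2 by 0.07, Postn by -0.04 and Eln by -0.01. Fn1, fibronectin, changed by 0.12 on its brightest probe set, while a dimmer probe set rose by 0.72 ± 0.15 (SE, limma adjusted p = 0.0419). The uncalled Bhlhe40 and Comp changed by 1.11 and 1.08, more than Snai2, with larger errors (limma adjusted p = 0.263 and 0.133). Col1a1 averaged 8448 ± 1689 units in apoE-/- and 5668 ± 215 units in wild type aorta (SD, n = 3 each, limma adjusted p = 0.0696). A dimmer Col1a1 probe set changed by 0.22 ± 0.10 (SE, limma adjusted p = 0.308). Acta2 and Tagln, contractile genes that the pathway maintains in smooth muscle, changed by -0.05 and -0.04. Dimmer Acta2 probe sets changed by -0.76 ± 0.21 and -0.62 ± 0.28 (SE, limma adjusted p = 0.107 and 0.325). On the former all apoE-/- arrays lay below the wild type arrays, where 12.2% of all probe sets tested did so, and the latter overlapped. These genes were named after their values were seen.

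In the related BMP, activin and GDF branch, 1 of 25 genes was lower and none was higher, where 0.368% of all genes tested were lower and 3.09% higher. Bmpr1b, a type I BMP receptor, read 414, 612 and 480 units in apoE-/- aorta, against 878, 860 and 893 units in wild type aorta (log2 change -0.80 ± 0.15, SE, limma adjusted p = 0.0245). All apoE-/- arrays were below the wild type arrays, and a dimmer probe set changed by -0.28. The call was lost without any single array other than apoE-/- replicate 2, with adjusted p-values of 0.0641 to 0.108.

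**Figure D3:**
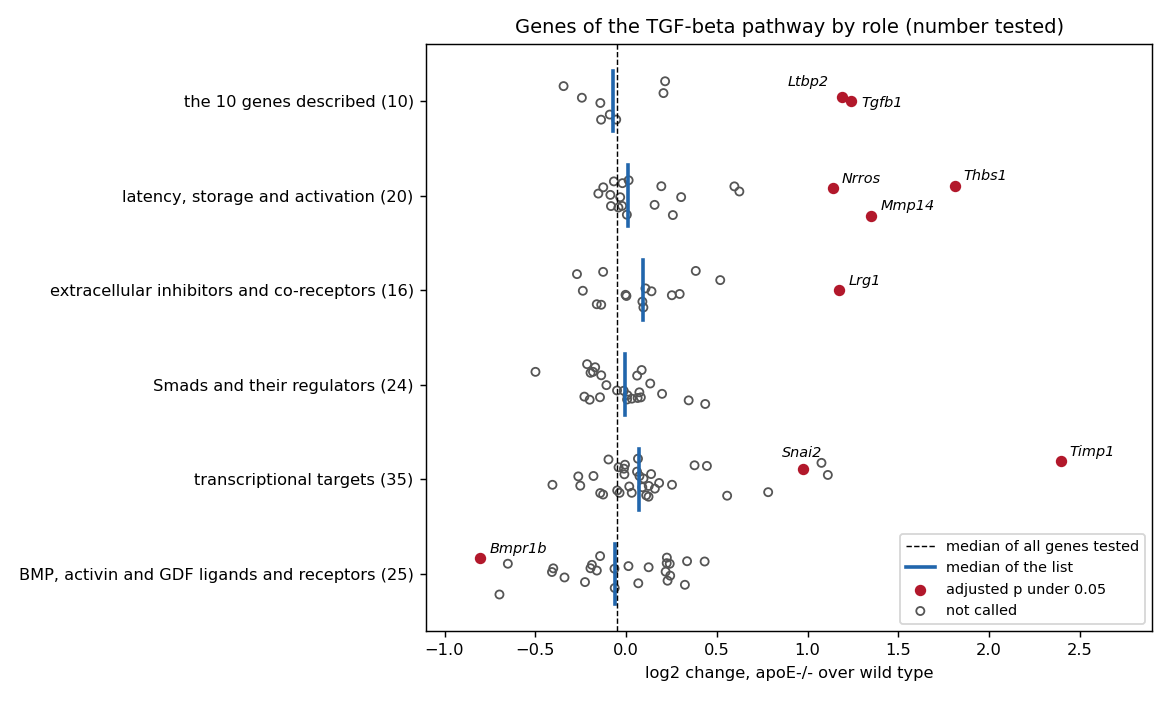
The log2 change of apoE-/- over wild type (x axis) for genes of the TGF-beta pathway, grouped by role (y axis, number tested in brackets), with small vertical offsets to separate points. Filled red points are genes with an adjusted p under 0.05, open circles the others, the blue bar is the median of a list and the dashed line the median of all genes tested. List medians lie between -0.07 and 0.09, close to the -0.05 of all genes. Among the transcriptional targets 2 uncalled genes, at 1.11 and 1.08, lie beyond the called Snai2 at 0.98.

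Markers of other cells differed beside these genes. Of 20 macrophage markers tested, 18 were higher, where 3.09% of all genes tested were called higher and 0.368% lower. The uncalled ones were Csf1r, at 0.50 in log2 (limma adjusted p = 0.111), and Cd163, at 0.02 with overlap. The summed intensity of the 20 was 67036 to 100578 units in apoE-/- and 21594 to 23581 units in wild type aorta. No marker in the list was at 0. Within the apoE-/- group, replicate 2 was the lowest array for the macrophage sum, Tgfb1, Ltbp2, Mmp14, Nrros, Lrg1, Timp1 and Snai2, whereas Thbs1 was lowest on replicate 1. The adventitial fibroblast and adipocyte sums were also lowest on replicate 2. The sum of 6 cartilage markers was 3157 to 9797 units in apoE-/- and 2068 to 2384 units in wild type aorta, with 3 of 6 higher, and was highest on apoE-/- replicate 1, where Ltbp2 was also highest. Within the apoE-/- group, Tgfb1 and the adventitial fibroblast, smooth muscle, platelet, T cell and adipocyte sums were highest on replicate 1 too. The sum of 11 adventitial fibroblast markers was 92137 to 110021 units in apoE-/- and 86322 to 89965 units in wild type aorta, with 1 higher.

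Of 12 smooth muscle markers limma called none, 3 had an unadjusted p under 0.05, against 2391 of all 13052 genes, and the sums overlapped (90467 to 109630 units in apoE-/-, 102891 to 116291 units in wild type). All 12 had negative log2 changes, with a median of -0.15. In 5 of them all apoE-/- arrays lay below the wild type arrays, where 12.2% of all probe sets tested did so. Of 12 endothelial markers 1 was higher, where 3.09% of all genes tested were. All 12 had positive log2 changes with a median of 0.22, and those sums overlapped as well. Platelet markers, whose cells store TGF-beta 1, overlapped, at 6773 to 7851 units in apoE-/- and 6750 to 11291 units in wild type aorta for the sum of 5, of which limma called none and 1 had an unadjusted p under 0.05. Of 8 skeletal muscle markers 1 was lower, where 0.368% of all genes tested were. The 8 summed to 1414 to 1749 units in apoE-/- aorta and to 2885, 2822 and 26278 units in wild type aorta, where replicate 3 stood apart. The sum of 3 T cell markers, of 9 listed, did not overlap, at 672 to 1221 units in apoE-/- and 1543 to 1757 units in wild type aorta. Limma called none of the 3, and 1, Zap70, had an unadjusted p under 0.05. The gap in the sum came from Zap70, at 729, 389 and 99.8 units in apoE-/- aorta, against 1088, 1203 and 1074 units in wild type aorta. Cd3g and Cd8a overlapped and changed by 0.36 and -0.25. All 9 adipocyte markers had negative log2 changes, with a median of -0.51. Limma called none of them and 1 had an unadjusted p under 0.05, and their sums overlapped, at 32737 to 46417 units in apoE-/- and 36001 to 65051 units in wild type aorta, the highest being wild type replicate 2. The part of any of these cells in the changes of Tgfb1 and Ltbp2 was not tested. In bulk tissue, more cells of a type and more RNA per cell cannot be told apart.

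**Figure D4:**
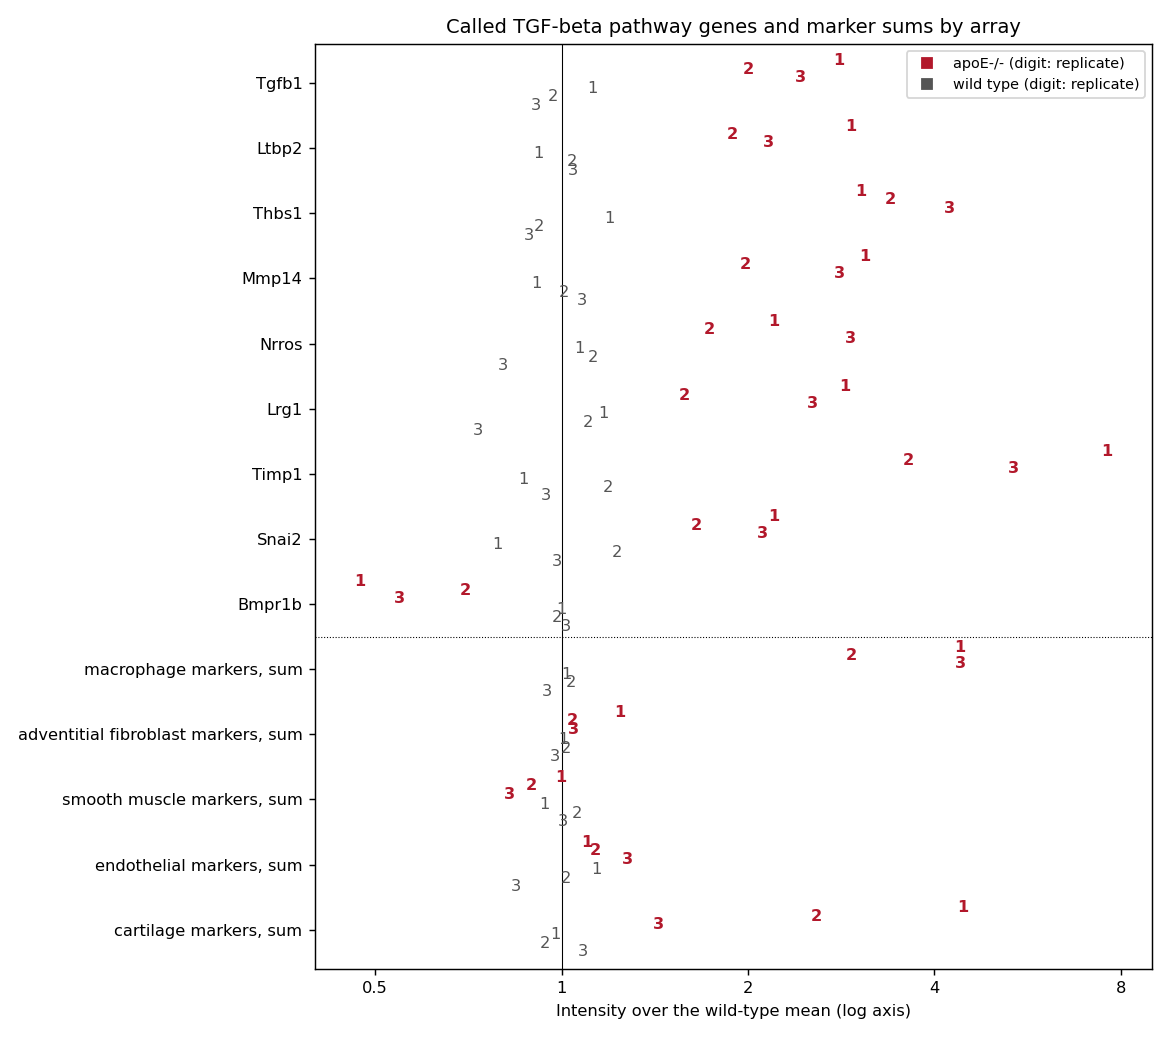
Intensity of the 9 called pathway genes and summed intensity of 5 marker lists on each array, divided by the wild type mean (x axis, log scale). Each digit is the replicate number of an array, red for apoE-/- and grey for wild type, offset vertically to separate digits. Ltbp2 lies at 1.89 to 2.93 times the wild type mean on the apoE-/- arrays and Tgfb1 reaches 2.81, where the macrophage sum lies at 2.94 to 4.41 and the smooth muscle sum at 0.82 to 0.998.

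By likeness of profile, measured as the root mean square distance between log2 values over the 6 arrays after centring each gene on its own mean, the genes nearest to Tgfb1 were Pcdhb9 (distance 0.09), Icam1 (0.10) and Tnfaip8l2 (0.10). Icam1 is an adhesion molecule for leukocytes, Tnfaip8l2 a regulator of immune signalling and Pcdhb9 a protocadherin. Nearest to Ltbp2 were Cx3cl1 (0.07), a membrane-bound chemokine, Mmp14 (0.13) and Lum (0.14), a proteoglycan of collagen fibrils. Nearest to Tgfb2 were Slc52a3, Trp53inp2 and Pitpnm2os1, and to Tgfb3 Pawr, Pdzd2 and Trip6. For the receptors they were Selenom, Srm and Samd4b (Tgfbr1), Il6st, Hgsnat and Prelid1 (Tgfbr2), and Stk17b, Dnajc3 and Anapc1 (Tgfbr3). For the uncalled binding proteins they were Zbtb14, Klhdc10 and Tomm34 (Ltbp1) and Efna4, Sfxn3 and Gm5600 (Ltbp3), and for Tgfbi Tmem106c, Zfp24 and Fam20a. With 6 arrays in 2 groups, such distances are a description only.

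Tgfb1 and Ltbp2 were both called under each of the 16 processing alternatives tried, 6 of which left out 1 array. For Tgfb1 the log2 change ranged from 1.12 without apoE-/- replicate 1 to 1.36 without apoE-/- replicate 2, and for Ltbp2 from 1.01 to 1.33 without the same arrays. The highest adjusted p in limma was 0.0214 for Tgfb1 and 0.026 for Ltbp2. Thbs1, Mmp14 and Timp1 were also called under all 16.

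**Figure D5:**
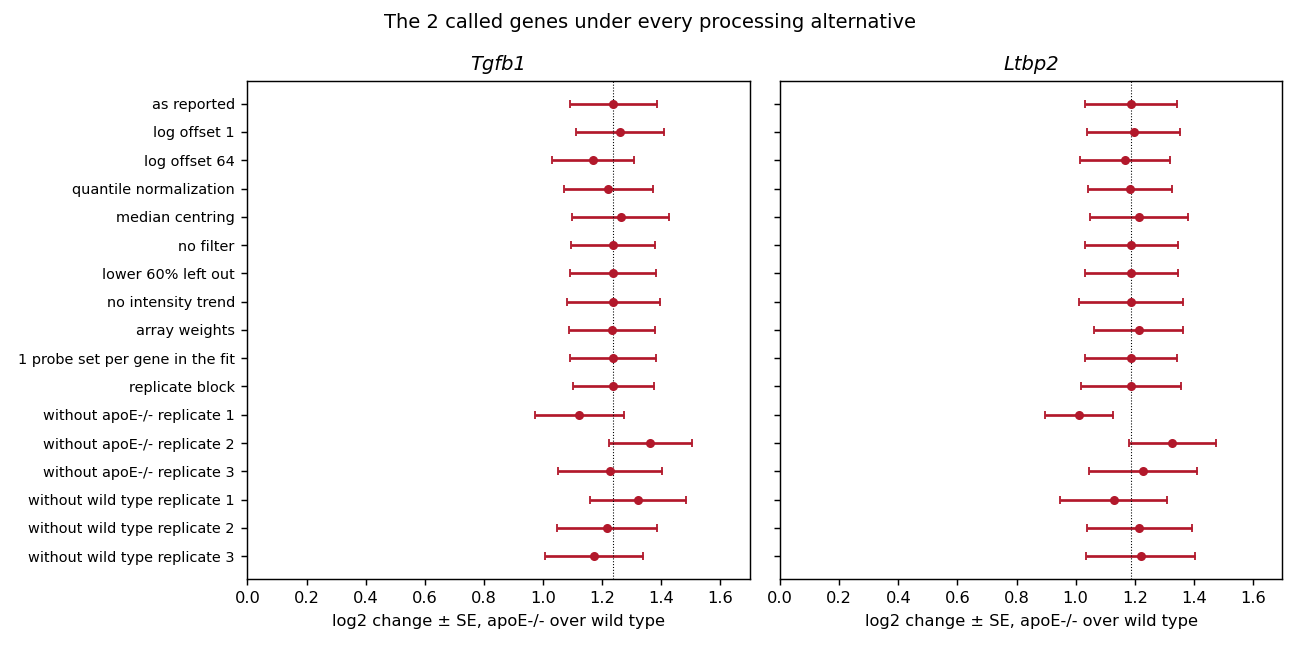
The log2 change of apoE-/- over wild type with its SE (x axis) for Tgfb1 (left) and Ltbp2 (right) as reported and under each of 16 processing alternatives (y axis). The dotted line is the value as reported, 1.24 for Tgfb1 and 1.19 for Ltbp2, and each estimate lies between 1.01 and 1.36.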

How the data were processed

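RNA of 6 aorta samples was measured on single-colour Affymetrix mouse arrays. The values that the authors deposited are linear intensities for 45101 probe sets. Tested on the values, each array had a mean of 500.002 after trimming 2% at each end, so the authors had scaled the intensities to one level; the software is not given in the sources used here. No detection calls were used.

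Symbols came from the platform annotation, which can be old, and were updated through gene identifiers to the RefSeq table of GRCm38.p6 (34754 probe sets matched). Of the probe sets other than controls, 34945 had 1 symbol, 932 had several and were not named, and 9160 had none. Intensities were transformed to log2(intensity + 16). The 64 control probe sets and the lower 40% of the others by mean over 6 arrays (18015, under 124 units) were left out. A linear model with a single term, genotype, was fitted to the other 27022 (limma 3.58.1 under R 4.3.3, lmFit and trended eBayes), and p-values were adjusted by Benjamini-Hochberg over all of them. Genes of the pathway lists were represented by their brightest probe set (13052 genes). The fit was also run on simulated data with independent normal noise of the fitted variance. That simulation treats all arrays alike, so it cannot show how the fit handles arrays that differ in quality. With 3 arrays against 3, an exact permutation test cannot give a two-sided p below 0.1. Arrays give no counts, and their number limits the precision.

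The members and lists were chosen with earlier results of these data known. The named genes were every member, and of each list up to 4 called genes by size, or the gene with the smallest p; any other list gene was named after its values were seen. For each member the 3 genes nearest in profile were named. A few list genes were not analysed here. The alternatives were log offsets of 1 and 64, quantile normalization, median centring, no filter, a 60% filter, no trend, array weights, 1 probe set per gene, a replicate block and leaving out each array.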

Additional observations from a re-analysis of the deposited data

How the results depend on the processing

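Of 395 values of the 26 probe sets under the 16 alternatives, 384 kept their direction and their side of the threshold, and 11, on 6 uncalled probe sets, changed sign at adjusted p-values of 0.909 or more. One of these came with array weights, where the third brightest probe set of Ltbp3 was at -0.0029 in log2. The others came from leaving out 1 array, which gave ranges of -0.085 to 0.32 for that probe set, -0.0047 to 0.22 for the second brightest and -0.25 to 0.024 for the brightest of Ltbp3, -0.034 to 0.11 for the third brightest of Tgfb2, -0.039 to 0.13 for the third brightest of Tgfbi and -0.22 to 0.027 for the dimmer of Tgfbr3; the cause was not tested. The count of called probe sets of the 10 genes was 2 under every alternative.

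Counts over all probe sets were 459 without an intensity trend and 477 with 1 probe set per gene, where fewer features were tested, and 292 to 1091 leaving out 1 array. Among transcriptional targets the count was 4 with array weights and 1 with no filter, without a trend and with the replicate block (1 to 4 leaving out 1 array). Extracellular inhibitors and co-receptors had 0 called genes with quantile normalization, with no filter, without a trend and with the replicate block (0 to 1). The BMP branch had 0 without a trend and with the replicate block (0 to 1). Smads had 0 to 1 and latency genes 2 to 5 leaving out 1 array; the cause was not tested.

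Deviations from the genotype means had r = -0.11, -0.13 and -0.04 between same-numbered arrays of the 2 genotypes (replicates 1, 2 and 3). Between differently numbered arrays r lay between -0.13 and 0.21. With 3 arrays per genotype, these values cannot show whether the numbers mark any shared handling. With the replicate block, 534 probe sets were called, and Tgfb1 and Ltbp2 were called, whereas Nrros, Lrg1, Snai2 and Bmpr1b were not, nor were they without an intensity trend.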
